A study of Mus musculus with 6 samples.

Results

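The bodies of 4 broadly transcribed genes were compared: Smarca4, Polr2a, Chd4 and Xpo1. Smarca4 encodes BRG1, the ATPase of SWI/SNF chromatin remodelling complexes. Polr2a encodes the largest subunit of RNA polymerase II, Chd4 the ATPase of the NuRD remodelling complex, and Xpo1 the nuclear export receptor CRM1. Each was taken as 1 fixed interval of the mm9 genome by a rule that names genes and coordinates and sets no methylation threshold. The genes were, however, chosen with earlier results of these data known. The intervals held 1767 CpG sites, of which 1238 were compared, out of 7065841 sites compared and 20782144 sites listed in the whole genome.

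Mouse embryonic stem cells were studied by bisulfite sequencing of the whole genome, in which a cytosine that stays C after treatment is read as methylated. Every line lacked DNMT1, DNMT3A and DNMT3B. One line carried DNMT3A2, one carried DNMT3B1, and the third carried DNMT3B1 in cells that also lacked SETD2. The cells were grown on feeders or gelatine. Each line had 2 sequencing runs and the labels name no separate cultures, so there is 1 set of values per line and no test between lines was possible. The methyltransferase, the knockout and anything else that differed between the cultures cannot be told apart with 1 library per line. Whether a line is 1 clone is not stated in the labels. The intervals given below therefore describe reads and CpGs within these 3 lines, not variation between cultures.

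DNMT3A and DNMT3B add methyl groups to unmethylated CpGs, and DNMT1 copies methylation to the new strand after replication. SETD2 places a trimethyl mark on lysine 36 of histone H3 along transcribed gene bodies, and the PWWP domain of DNMT3B binds that mark. Promoters of broadly transcribed genes usually lie in CpG islands that stay unmethylated. The study's title names a role of DNMT3B in methylation within genes.

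The promoters are shown because the results below depend on where a gene starts. The start of each gene was placed in mm9 by matching the spacing of the CpGs in its RefSeq promoter sequence (GRCm38.p6, 250 bases before the start to 50 after) to the spacing of the CpG sites in the deposited table. All 4 genes were found at a single place in the genome, with 33 CpGs in the window of Smarca4, 30 in that of Polr2a, 17 in that of Chd4 and 27 in that of Xpo1. Chd4 has a further start in that table, with 29 CpGs, which was also found once. It had 3 methylated of 240 reads with DNMT3A2, 1 of 403 with DNMT3B1 and 2 of 187 in the knockout, and the values below use the first start. At least 1 CG occurred in 94.6% of all 32851 promoter sequences of this length, with a median of 7. The sequences of 2 genes are printed: Smarca4, whose window had the most methylated reads with DNMT3A2 and with DNMT3B1, and Polr2a, whose window had none in these lines. The windows of Chd4 and Xpo1 also had none there. The printed sequences are the 250 bases before the start, 5′ to 3′ on the gene's own strand, with each CG in capitals (CG reads the same on both strands).
Polr2a, minus strand, start at base 69572135 of chromosome 11 in mm9: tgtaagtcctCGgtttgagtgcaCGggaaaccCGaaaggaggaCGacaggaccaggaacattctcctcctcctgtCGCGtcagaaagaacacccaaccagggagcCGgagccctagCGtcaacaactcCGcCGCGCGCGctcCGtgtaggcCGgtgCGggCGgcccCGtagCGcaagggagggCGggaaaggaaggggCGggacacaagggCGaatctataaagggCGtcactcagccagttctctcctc
Smarca4, plus strand, start at base 21420613 of chromosome 9 in mm9: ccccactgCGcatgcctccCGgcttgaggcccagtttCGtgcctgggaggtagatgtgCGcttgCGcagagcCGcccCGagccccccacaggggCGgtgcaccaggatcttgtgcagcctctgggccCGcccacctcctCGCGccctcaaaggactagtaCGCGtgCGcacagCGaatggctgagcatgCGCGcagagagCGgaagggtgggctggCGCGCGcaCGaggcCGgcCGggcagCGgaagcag

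Pooled over the genes, these 300-base windows carried almost no methylation in any line. At Polr2a, 0 of 415 reads were methylated with DNMT3A2 and 0 of 312 with DNMT3B1, which allows up to 0.885% and 1.18% (exact 95% binomial limits, counting error only). The SETD2 knockout had 3 methylated of 660 reads there. Smarca4 had 4 of 423, 6 of 327 and 2 of 596 reads in the DNMT3A2, DNMT3B1 and knockout lines, or 0.946%, 1.84% and 0.336%. Its value with DNMT3B1 allows up to 3.95%. Over the 4 promoters the levels were 0.294% (4 of 1359 reads), 0.410% (6 of 1463) and 0.391% (9 of 2304), and their intervals overlapped. All the methylated reads with DNMT3A2 and with DNMT3B1 came from Smarca4. The knockout had values at 24 of the 33 CpGs of Smarca4 and at 6 of the 17 of Chd4. For comparison, autosomal sites with 60 or more CpGs per kb had levels of 0.210%, 0.153% and 0.463%, and the share of unconverted cytosines in any of these values was not tested.

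The gene intervals start 1135 to 3387 bases after these transcription starts and so leave the promoters out. Smarca4 was read on chromosome 9 from base 21424000 to 21507000 of mm9, with 507 of 843 sites compared. Polr2a was read on chromosome 11 from 69549000 to 69571000, with 190 of 225 sites. Chd4 was read on chromosome 6 from 125048000 to 125079000, with 404 of 475 sites. Xpo1 was read on chromosome 11 from 23158000 to 23197000, with 137 of 224 sites. To be compared, a site needed 5 or more reads in all lines, and no more than 45, 40 and 80 in the DNMT3A2, DNMT3B1 and knockout lines. Exons and introns were not told apart, since no mm9 annotation was used here. Mean coverage over the compared sites of the 4 genes was 15.3, 15.5 and 22.9 reads. It was higher at Polr2a and Chd4 (18.0 and 17.5 reads with DNMT3B1) than at Smarca4 and Xpo1 (13.6 and 13.1), and the part of this coverage in the results was not tested. The knockout values list only sites with at least 10 reads, so 379 sites of the genes had no knockout value.

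The whole genome sets the scale for what follows. Over the 7065841 compared sites DNMT3A2 gave 7.28%, DNMT3B1 2.75% and the knockout line 5.87%. The genome-wide ratio was thus 0.378 for DNMT3B1 over DNMT3A2 and 2.13 for the knockout over DNMT3B1.

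In the DNMT3B1 line the 4 gene bodies were methylated well above the genome, and in the other lines they were close to sites of the same CpG density. Pooled over the genes, 1569 of 18991 reads were methylated in the DNMT3A2 line (8.26%), 1056 of 19197 in the DNMT3B1 line (5.50%) and 2059 of 28379 in the knockout line (7.26%). The exact 95% binomial intervals were 7.87 to 8.66%, 5.18 to 5.83% and 6.96 to 7.56%, and none overlapped another. Intervals over 500 bp clusters of CpGs, which also cover variation along the gene, were 7.54 to 9.05%, 4.81 to 6.29% and 6.63 to 7.94%, and those of DNMT3A2 and the knockout overlapped.

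Smarca4 had the highest level of the 4 genes in the DNMT3A2 line and in the knockout. DNMT3A2 gave 9.37% (641 of 6844 reads), DNMT3B1 5.14% (355 of 6909) and the knockout 8.82% (852 of 9655). Polr2a had the highest level in the DNMT3B1 line. Its levels were 8.27% (287 of 3472 reads), 6.27% (215 of 3428) and 7.04% (341 of 4845) in the same order. Chd4 stood between, at 7.74% (536 of 6921 reads), 5.81% (410 of 7062) and 6.57% (708 of 10772). Xpo1 was the least CpG-dense gene, with a mean of 7.45 CpGs in the 1 kb around its compared sites. It also had the fewest reads and was lowest in all 3 lines. It had 5.99% (105 of 1754 reads), 4.23% (76 of 1798) and 5.09% (158 of 3107).

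The order of the genes was not resolved in 2 of the lines. Of 6 gene pairs, none differed beyond the cluster interval with DNMT3A2 or with DNMT3B1. In the knockout 2 pairs did: Smarca4 was above Chd4 by 0.43 (95% interval 0.12 to 0.73) and above Xpo1 by 0.80 (0.39 to 1.20) on the log2 scale. These pairs were not adjusted for their number.

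**Figure D1:**
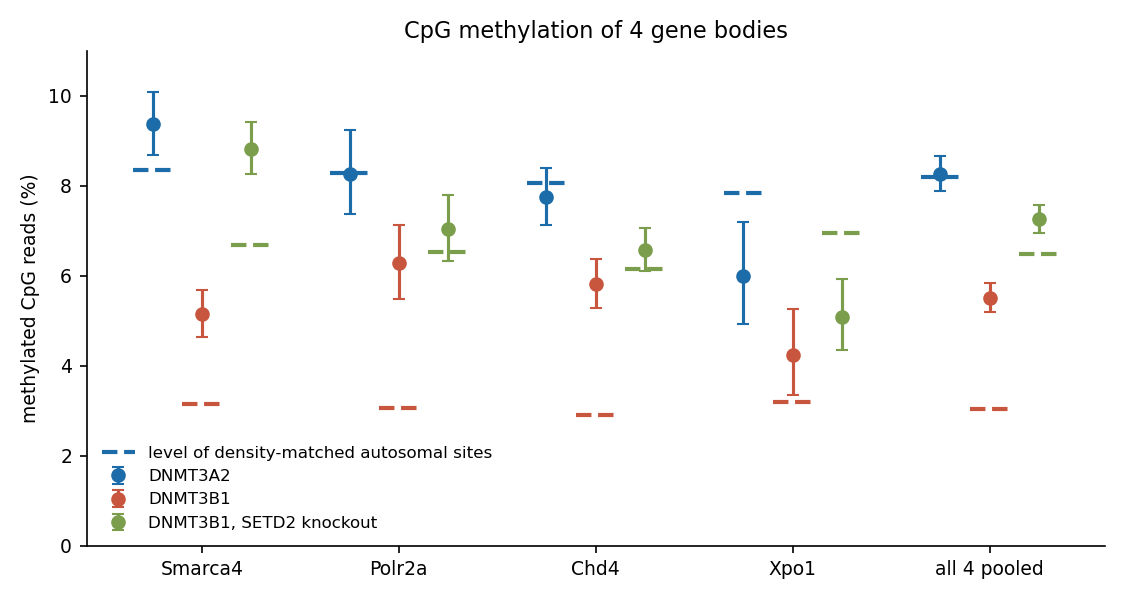
Methylated CpG reads in percent for each gene body and for the 4 pooled, in the 3 lines. Points are levels with exact 95% binomial intervals, and dashed marks are the level of autosomal sites at the same CpG densities; the DNMT3B1 points of Smarca4, Polr2a and Chd4 lie far above their marks, as does the pooled level of 5.50%.

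Local CpG density affects the level, so each gene was set against autosomal sites outside the 4 intervals with the same densities, counted over 1 kb around each site. A ratio of 1 means the level of such sites. Pooled, the gene bodies stood at 1.01 (95% cluster interval 0.92 to 1.11) with DNMT3A2 and at 1.81 (1.57 to 2.08) with DNMT3B1. In the knockout they stood at 1.12 (1.02 to 1.22), at 1.01 without Smarca4 and at 1.07 where each site needed 10 reads, the last 2 with intervals that included 1. With DNMT3B1 the ratio was 2.05 for Polr2a, 2.01 for Chd4, 1.63 for Smarca4 and 1.33 for Xpo1, and the interval of Xpo1 alone included 1 (0.78 to 2.25). Where each site needed 10 reads the ratio of Xpo1 was 0.84, again with an interval that included 1. With only sites below 20 CpGs per kb the ratio of Chd4 was 1.50 (1.13 to 2.00). With DNMT3A2 the 4 ratios ran from 0.76 to 1.12 and every interval included 1, although that of Smarca4 lay above it where sites needed only 1 read (1.19) or density was counted within 250 bp (1.17). In the knockout Smarca4 lay above its matched sites at 1.32 (1.16 to 1.51) and Xpo1 below them at 0.73 (0.57 to 0.94), while Polr2a (1.08) and Chd4 (1.07) had intervals that included 1. Where each site needed 10 reads, Smarca4 was at 1.17 (0.97 to 1.41) and Xpo1 at 0.75 (0.55 to 1.03), and Xpo1 was at 0.79 (0.62 to 1.01) with a minimum of 1 read, so none of these excluded 1. In these matched ratios 4 of 6 gene pairs differed beyond the cluster interval in the knockout, and 0 of 6 in each other line. Smarca4, Polr2a and Chd4 were each above Xpo1, and Smarca4 was above Chd4 by 0.31 (0.004 to 0.61) on the log2 scale. The pairs were not adjusted for their number.

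The excess in the DNMT3B1 line was present at every density with enough sites. The ratio was 2.10 for sites with 1 to 4 CpGs within that kb, 1.44 for 5 to 9, 1.66 for 10 to 19 and 2.48 for 20 to 39, and all 4 intervals lay above 1. The same bins gave 0.96, 1.01, 0.95 and 1.17 with DNMT3A2, with every interval including 1. In the knockout they gave 0.83, 1.06, 1.16 and 1.13, and only the interval at 10 to 19 CpGs per kb (1.03 to 1.30) lay above 1. Above 39 CpGs per kb the genes had 7 compared sites.

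In each line many sites had no methylated read and few had most of their reads methylated. In the DNMT3B1 line 66.6% of the 1238 sites had no methylated read, against 51.9% with DNMT3A2 and 49.3% in the knockout, which was sequenced more deeply. Sites with most of their reads methylated, or as many methylated as not, were rare: 15, 11 and 13 of the 1238 sites in the DNMT3A2, DNMT3B1 and knockout lines. The shares of both kinds of site over the whole genome were not computed, so neither sets the genes apart.

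To compare lines that differ in total methylation, the log2 ratio of their levels in a gene was taken relative to the same ratio over the genome. A relative log2 ratio of 0 means that the gene differed between lines as the genome did. For DNMT3B1 over DNMT3A2 it was 0.82 (95% cluster interval 0.59 to 1.04) over the 4 genes. It was 1.00 (0.51 to 1.49) for Polr2a, 0.99 (0.62 to 1.36) for Chd4 and 0.54 (0.17 to 0.90) for Smarca4. Xpo1 stood at 0.90 with an interval of -0.05 to 1.85. The 4 genes were not told apart by this ratio, since the differences of all 6 pairs had intervals that included 0.

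Between the SETD2 knockout and the DNMT3B1 line the gene bodies differed less than the genome did. Their pooled level was 1.32 times that of the DNMT3B1 line, against 2.13 times for the genome, a relative log2 ratio of -0.69 (-0.88 to -0.50). Polr2a was at -0.93 (-1.28 to -0.57), Chd4 at -0.91 (-1.23 to -0.59) and Xpo1 at -0.82 (-1.59 to -0.06). Smarca4 differed least from the genome, at -0.31 (-0.60 to -0.02). It was 0.61 above Polr2a (0.15 to 1.07) and 0.60 above Chd4 (0.17 to 1.04) in this ratio, and the other 4 pairs had intervals that included 0. With only sites below 20 CpGs per kb, Chd4 moved to -0.52 (-0.91 to -0.14), nearer to Smarca4 at -0.32 (-0.64 to -0.01). The difference between these genes was not tested in that setting. Without Smarca4 the pooled value was -0.92. Where each site needed 10 reads, Smarca4 stood at 0.41 in the first ratio and -0.36 in the second and Xpo1 at -0.11 in the second, all with intervals that included 0. Both ratios contain the DNMT3B1 line, so a high DNMT3B1 level by itself raises the first and lowers the second.

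The knockout and DNMT3A2 lines share no library, and between them each gene's interval included the genome-wide ratio. The relative log2 ratio was 0.12 (-0.04 to 0.29) pooled, and 0.22, 0.08, 0.07 and 0.08 for Smarca4, Polr2a, Chd4 and Xpo1, each with an interval that included 0. Below 20 CpGs per kb the pooled value was 0.19 (0.01 to 0.38), and 2 other settings also excluded 0. Smarca4 stood at 0.28 (0.02 to 0.54) without a coverage maximum and at 0.37 (0.12 to 0.62) with each site weighted equally.

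**Figure D2:**
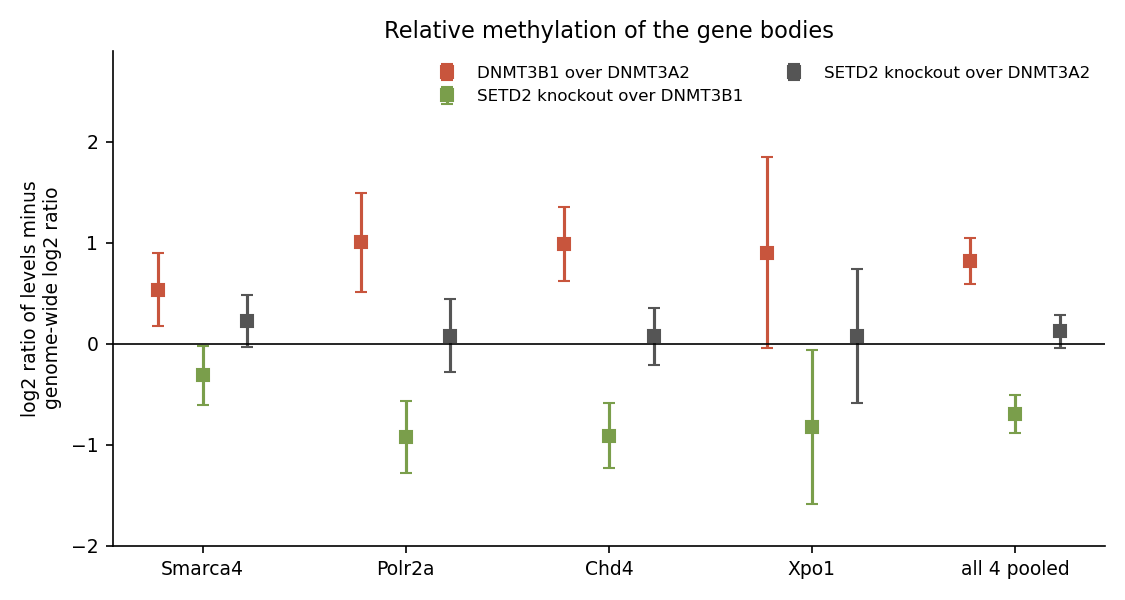
Relative log2 ratios between the 3 pairs of lines for each gene body and for the 4 pooled, with 95% intervals over 500 bp clusters; 0 is the genome-wide ratio. All DNMT3B1 over DNMT3A2 values lie above 0 and all knockout over DNMT3B1 values below it, with the interval of Xpo1 for DNMT3B1 over DNMT3A2 reaching -0.05.

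Methylation levels differed with the distance from the transcription start. These levels were not matched for CpG density, and the part of density in them was not tested. In the first 2 kb after the start the 4 genes together had 0.0836% with DNMT3B1 (3 of 3587 reads), 0.272% with DNMT3A2 (9 of 3303) and 0.732% in the knockout (40 of 5463). From 2 to 5 kb the levels were 0.891%, 4.43% and 2.80%. From 5 to 10 kb they were 4.87%, 7.66% and 4.45%, and from 10 to 20 kb 6.73% (374 of 5561 reads), 7.93% (442 of 5574) and 7.65% (639 of 8357). The DNMT3A2 level had thus come close to its final height by 5 to 10 kb, while the DNMT3B1 and knockout levels were still higher in the next bin.

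The starts of 12376 other genes, placed in the same way, gave the background. These genes were not limited to transcribed ones, their bins were not cut at gene ends, and density was not matched. With DNMT3B1 these genes had 2.54% from 2 to 5 kb, 2.76% from 5 to 10 kb and 2.74% from 10 to 20 kb. Pooled, the 4 genes were thus below the other genes at 2 to 5 kb and above them at 5 to 20 kb. Single genes did not all follow the pooled value. From 5 to 10 kb Smarca4 had 1.50% (3 of 200 reads) and Xpo1 1.95% (5 of 256), below the other genes. Polr2a had 3.52% there and Chd4 5.95%, and Chd4 gave 97 of the 114 methylated reads. At 2 to 5 kb the 4 genes pooled were below the other genes in the other lines as well, where the other genes had 6.21% with DNMT3A2 and 4.96% in the knockout. At 5 to 10 kb the other genes had 6.62% with DNMT3A2, below the 4 genes, and 5.30% in the knockout, above them. From 10 to 20 kb the other genes had 6.78% with DNMT3A2 and 5.34% in the knockout, below the 7.93% and 7.65% of the 4 genes pooled. Upstream, from 20 to 10 kb before the start, the 4 genes had 2.00% with DNMT3B1 and the other genes 2.49%.

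**Figure D3:**
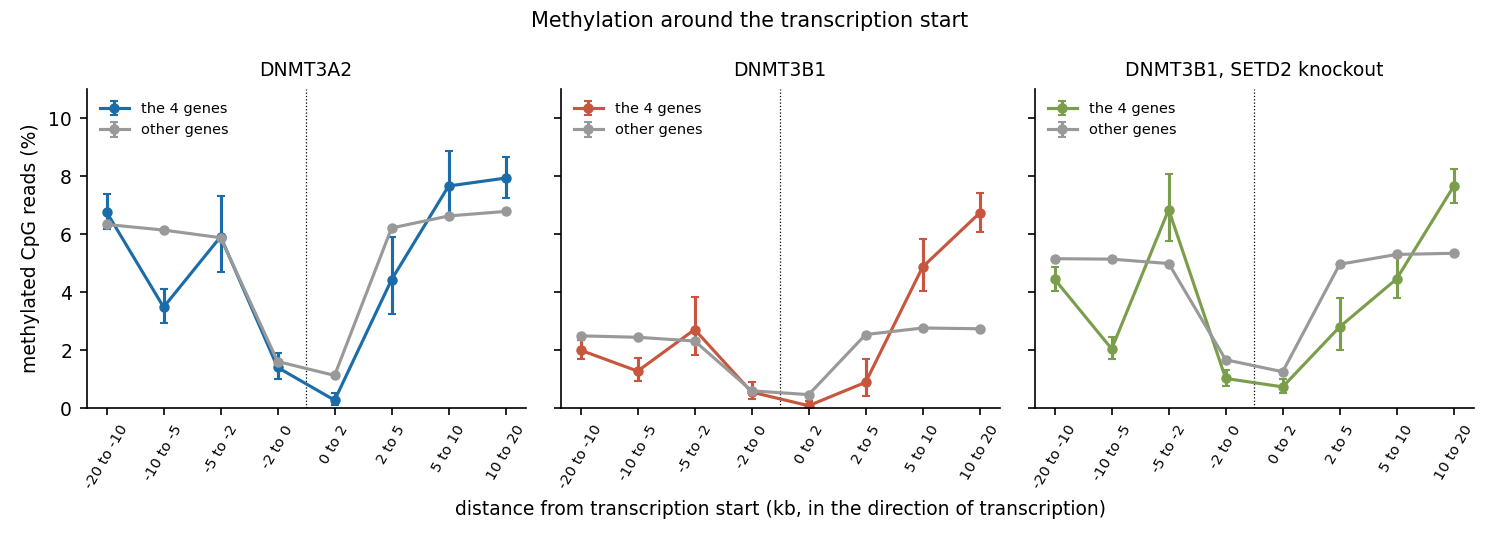
Methylated CpG reads in percent against distance from the transcription start in kb, in the direction of transcription, for the 4 genes pooled (coloured) and for 12376 other genes pooled (grey) in each line; error bars are exact 95% binomial intervals and the dotted line marks the start. In the DNMT3B1 line the 4 genes pooled reach 6.73% at 10 to 20 kb, against 2.74% in the other genes.

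The single windows from 4 to 20 kb after the start allowed a count. It is a description only, since the genes were chosen with earlier results of these data known. A window was called where the cluster interval of its relative log2 ratio did not include 0. For DNMT3B1 over DNMT3A2, 2 of the 4 genes were called higher, Polr2a at 1.17 (0.62 to 1.72) and Chd4 at 1.12 (0.73 to 1.50), against 10.4% of 11016 windows after other starts. Smarca4 stood at 0.31 (-1.08 to 1.70) and Xpo1 at 0.51 (-1.27 to 2.29), with 64 and 62 compared sites in the window. The median of the other windows was 0.06. For the knockout over DNMT3B1 the same 2 genes were called lower, Chd4 at -1.03 and Polr2a at -0.94, against 10.1% of 11019 other windows. Smarca4 was at -0.56 and Xpo1 at -0.18, and the median of the other windows was -0.04. The middle 80% of the other windows lay between -0.88 and 0.96 for DNMT3B1 over DNMT3A2, and the values of Polr2a and Chd4 lay beyond that range.

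Tiles of 10 kb on a fixed genome grid, with at least 20 compared sites, gave a finer view of the gene bodies. Their counts, too, describe genes chosen with earlier results known. A tile was called where it differed from the genome by 2-fold or more and its cluster interval did not include 0. In all, 14 tiles lay wholly inside the genes. For DNMT3B1 over DNMT3A2, 4 of 14 were called higher, against 5.27% of 109827 other tiles, and 0 of 14 lower, against 6.3%. The 4 tiles were 1 in Polr2a, 1 in Chd4 and 2 in Smarca4. For the knockout over DNMT3B1, 1 of 14 was called lower, against 4.08%, and 0 of 14 higher, against 6.48%. The tiles' median relative log2 ratio was 0.71 for DNMT3B1 over DNMT3A2, with 12 of 14 above 0, against a median of -0.08 and 46.0% above 0 in the other tiles. For the knockout over DNMT3B1 it was -0.40, with 2 of 14 above 0, against 0.10 and 54.9%. For the knockout over DNMT3A2, 2 of 14 tiles were called higher, against 4.85% of the other tiles, and 0 of 14 lower, against 2.89%. They were 1 tile of Smarca4 at 1.10 (0.41 to 1.78) and 1 of Xpo1 at 1.11 (0.10 to 2.12), and 0 tiles of the genes were called higher at a minimum of 1 or of 10 reads. The median of the gene tiles in this pair was 0.29, against 0.01.

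Tiles of the same gene differed in value, but differences between them were not tested and most of their intervals overlapped. The highest tile for DNMT3B1 over DNMT3A2 was the one of Polr2a that holds the 3′ portion of its interval, chromosome 11 from base 69550001 to 69560000. It had 7.76% with DNMT3B1 against 8.41% with DNMT3A2, a relative log2 ratio of 1.29 (0.64 to 1.94). The other tile of Polr2a, nearer the start, had 4.20% against 10.2% and a ratio of 0.12. In Chd4 the tile nearer the start, chromosome 6 from 125050001 to 125060000, had 6.73% with DNMT3B1, 8.09% with DNMT3A2 and 5.82% in the knockout. It was the 1 tile called lower for the knockout over DNMT3B1, at -1.30 (-1.78 to -0.82). In Smarca4 the 7 tiles ran from -0.30 to 1.10 for DNMT3B1 over DNMT3A2. In Xpo1 the 3 tiles ran from 0.15 to 0.87, each with an interval that included 0.

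**Figure D4:**
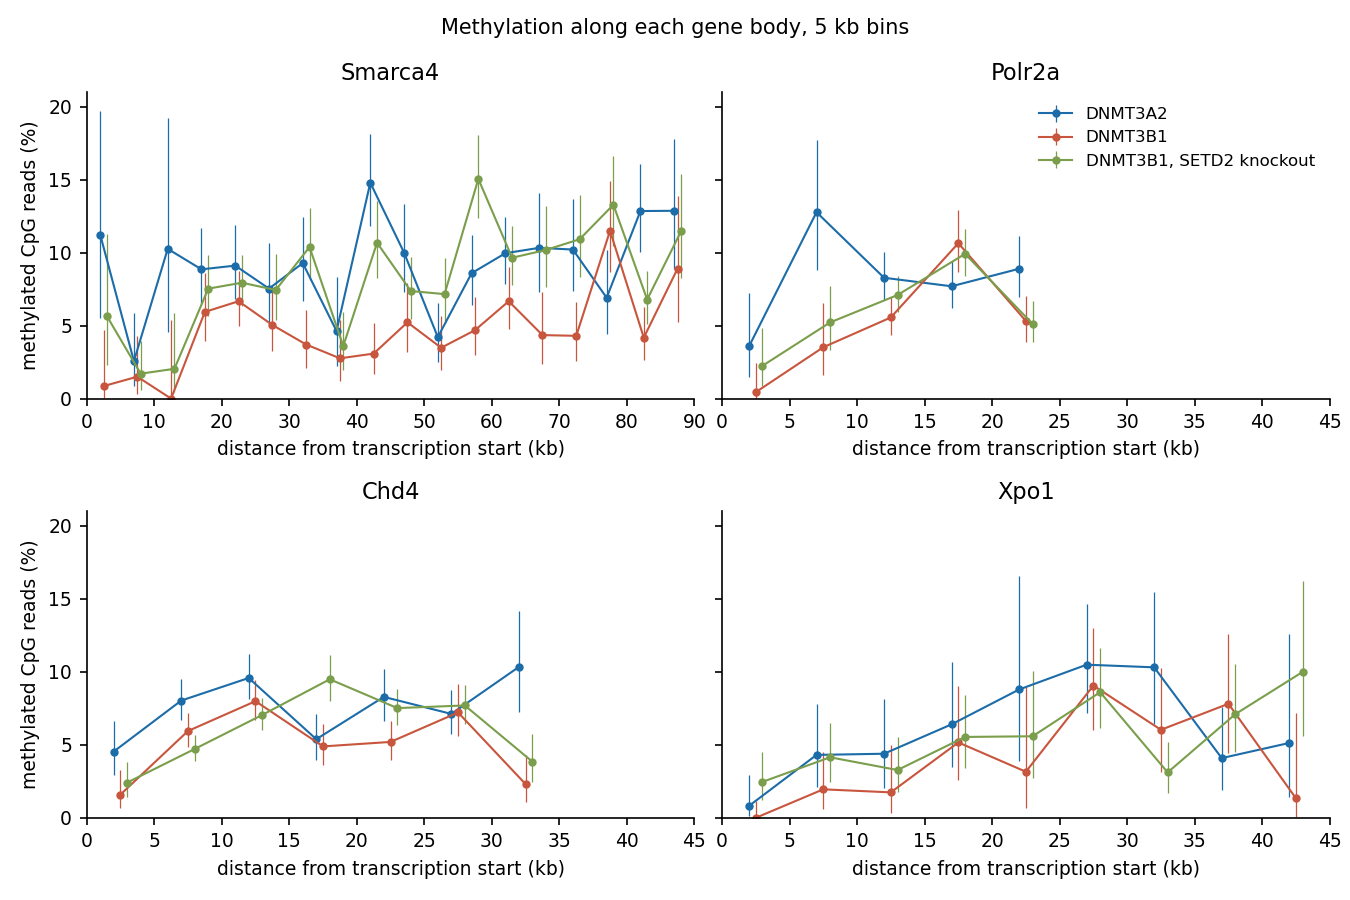
Methylated CpG reads in percent in 5 kb bins along each gene interval, against distance from the transcription start in kb, in the 3 lines; points are levels and bars exact 95% binomial intervals, and the first and last bins are cut short by the interval. With DNMT3B1 the first bin is under 2% in every gene, and Polr2a reaches 10.6% at 15 to 20 kb.

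Along single genes the bins followed different courses. With DNMT3B1, Polr2a had 0.437% in the first bin, 3.52% and 5.56% in the next ones, 10.6% (91 of 855 reads) at 15 to 20 kb and 5.32% in the last bin. With DNMT3A2 it had 12.8% (30 of 235 reads) already at 5 to 10 kb. Chd4 had 7.99% with DNMT3B1 (124 of 1552 reads) at 10 to 15 kb and 2.31% in its last bin. Smarca4 had its highest DNMT3B1 bin at 75 to 80 kb, with 11.5% (50 of 435 reads), the 1 bin beyond 5 kb of that gene in which DNMT3B1 exceeded DNMT3A2 (6.91%).

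Each interval was also split at its middle into the portion near the start and the portion far from it. Pooled, the far portion was above the near one in the knockout, 8.27% against 6.13%, a log2 ratio of 0.43 (0.16 to 0.70), but 0.19 (-0.15 to 0.54) where each site needed 10 reads. With DNMT3B1 the levels were 6.14% and 4.81%, a ratio of 0.35 (-0.06 to 0.76), or 0.76 (0.26 to 1.26) without Chd4 and 0.11 (-0.36 to 0.57) where each site needed 10 reads. With DNMT3A2 the levels were 8.41% and 8.08%, a ratio of 0.06 (-0.21 to 0.32). Xpo1 had the widest gap in all 3 lines. Its far and near portions had 8.44% and 3.72% with DNMT3A2, 6.87% and 1.96% with DNMT3B1, and 6.63% and 3.71% in the knockout, and all 3 intervals excluded 0, which they did not where each site needed 10 reads. Polr2a had 7.38% and 3.74% with DNMT3B1, with an interval of -0.13 to 2.09 on the log2 scale. Chd4 had 5.44% and 6.07%, the 1 gene whose far portion was not above the near one in that line. The difference between lines in this contrast was not tested. For the knockout over DNMT3A2, the relative log2 ratio of the far portions was 0.29 (0.07 to 0.50) pooled and 0.38 (0.06 to 0.70) for Smarca4. In the far portions of Polr2a, Chd4 and Xpo1 its interval included 0. The near portions gave -0.09 (-0.34 to 0.16) pooled.

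Pooled, the sequence around the genes did not reach the DNMT3B1 level of the bodies. Stretches as long as each interval, taken on both sides, can hold other genes. Upstream the level over density-matched sites was 0.74, 0.69 and 0.70 in the DNMT3A2, DNMT3B1 and knockout lines. Downstream it was 0.85, 1.09 and 0.86. The downstream flanks, taken alone, shifted in the same directions as the genes, with relative log2 ratios of 0.32 (0.05 to 0.59) for DNMT3B1 over DNMT3A2 and -0.34 (-0.61 to -0.07) for the knockout over DNMT3B1. Upstream these were -0.17 and 0.02, with intervals that included 0. The upstream stretches hold the promoters. Their compared sites had a mean of 40.3 CpGs in the 1 kb around each site, against 30.0 downstream and 14.6 in the genes.

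Set against both flanks together, the gene bodies were higher in all 3 lines after matching for density. The difference was 0.99 (0.72 to 1.26) on the log2 scale with DNMT3B1, 0.52 (0.35 to 0.70) in the knockout and 0.33 (0.15 to 0.52) with DNMT3A2. The relative log2 ratios between lines were not matched for density here. DNMT3B1 over DNMT3A2, as a relative log2 ratio, was 0.69 higher in the genes than in their flanks (0.38 to 1.00). That of the knockout over DNMT3B1 was 0.47 lower, a difference of -0.47 (-0.74 to -0.20). That of the knockout over DNMT3A2 differed by 0.22, with an interval of -0.01 to 0.45. Downstream of Xpo1 the density-matched level with DNMT3B1 was 1.64 (1.09 to 2.47), above the 1.33 of the gene itself.

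**Figure D5:**
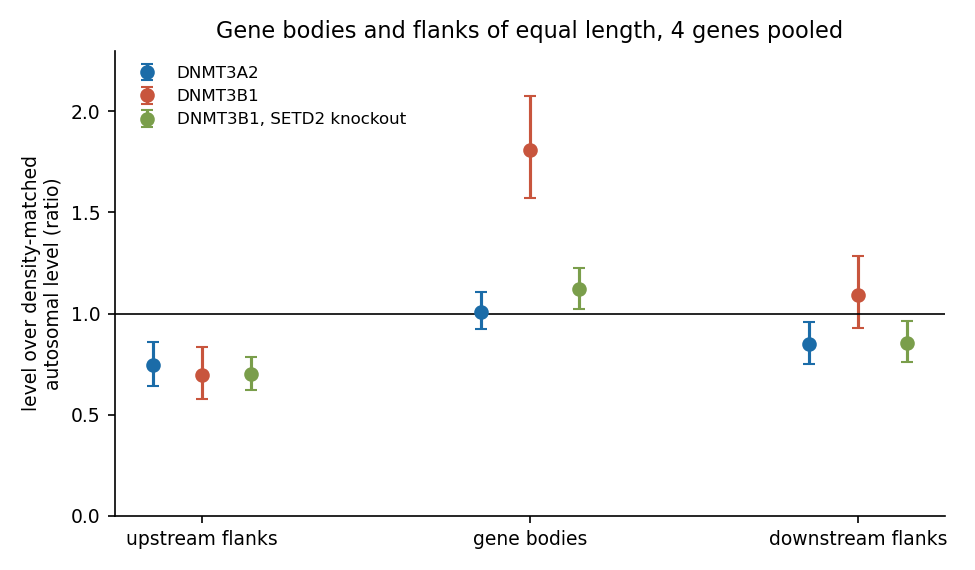
Level over density-matched autosomal sites, as a ratio, for the upstream flanks, the gene bodies and the downstream flanks of the 4 genes pooled, in the 3 lines, with 95% intervals over 500 bp clusters; the line at 1 is the matched autosomal level. The DNMT3B1 value of the gene bodies, 1.81, stands apart from all other values.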

How the data were processed

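For every CpG site the authors deposited the read count and the methylated read count of the DNMT3A2 and DNMT3B1 lines. The deposited knockout values gave the same counts at sites with at least 10 reads, in 2 identical files that were used once. Per the submitters' processing notes the genome was mm9. The aligner and the methylation caller: not given in the sources used here. Runs have no columns of their own, and the values of the DNMT3A2 and DNMT3B1 lines were read as the sum of their runs. Whether the knockout values hold 1 run or both is not known.

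Levels are methylated over all reads pooled over sites. Relative ratios, density matching and tiles were computed with Python 3.11.15, numpy 2.4.6, pandas 2.3.3 and scipy 1.17.1, and figures with matplotlib 3.10.9. Cluster intervals came from a linearised ratio estimator, which was tested on simulated data. Tiles without a methylated read were set to 3 reads. Of 15981 promoter sequences with at least 8 CpGs, 14309 matched the table once, 124 more than once and 1548 nowhere. The most upstream start that matched once was used for each gene. All 4 genes are named. The genes, and the lists of quantities, were chosen with earlier results of these data known, and start matching, distance profiles and windows after starts were added after the data were seen. Alternatives varied coverage limits, background, weighting, density, interval ends, genes, clusters and tiles.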

Additional observations from a re-analysis of the deposited data

How the results depend on the processing

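The pooled DNMT3B1 over DNMT3A2 value ran from 0.72 to 0.98 over 17 alternatives, the knockout over DNMT3B1 value from -0.92 to -0.53 over 16, and the density-matched DNMT3B1 ratio from 1.61 to 1.91 over 14. Leaving out Smarca4 gave -0.92 for the knockout over DNMT3B1, 1.01 for the density-matched knockout ratio, and levels of 7.64% with DNMT3A2 and 6.45% in the knockout. The knockout level was 7.67% without Chd4, 6.83% at a minimum of 10 reads, 6.79% with the background subtracted and 7.76% below 20 CpGs per kb, where the far over near ratio with DNMT3B1 was 0.77. In that last setting Chd4 had 4.97% with DNMT3B1, a density-matched ratio of 1.50 in that line, and -0.52 for the knockout over DNMT3B1. At a minimum of 10 reads the far over near ratio of Smarca4 in the knockout turned to -0.19 (-0.73 to 0.34); the cause was not tested. Without regard to the interval 2 tiles were lower for the knockout over DNMT3B1, and 5 kb tiles gave 3 lower, with 7 higher for DNMT3B1 over DNMT3A2. At a minimum of 1 read and of 10 reads, 0 tiles were higher for the knockout over DNMT3A2.

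Some intervals crossed their null value. At a minimum of 10 reads those of Smarca4 (0.41 and -0.36 for the first and second ratio), Xpo1 (-0.11 for the knockout over DNMT3B1), the pooled matched knockout ratio (1.07) and the pooled far over near ratio in the knockout (0.19) included it. That of Xpo1 also did at a minimum of 1 read (-0.69). The pooled knockout over DNMT3A2 value excluded 0 without a coverage maximum (0.19), below 20 CpGs per kb (0.19) and with 2 kb trimmed (0.18). Only even-numbered clusters gave 0.83 and only odd-numbered ones -0.67 for the 2 ratios, read from different CpGs, an alternative added after the data were seen. Both values still contain the same DNMT3B1 library and the same genes, so they are not independent of each other. No paired analysis was possible because each line has 1 set of values; for the same reason no run could be left out.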
